A study of Homo sapiens with 4 samples.

Results

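A set of 178 of the 5323 NRSF/REST binding sites mapped in H295R cells at basal SF-1 dosage touched the coding sequence (CDS) of a protein-coding gene and was found again when SF-1 was increased. These shared coding-exon sites were chosen by measured values: the called boundaries of a site had to overlap a called site of the other dosage by at least 1 bp. The site also had to overlap a coding segment by at least 1 bp, and its midpoint had to lie more than 2 kb from the 5′ end of every protein-coding gene. Counted from the list of 5059 sites at increased dosage, 178 sites met the same rule. Sharing, overlap with coding sequence and distance from gene starts are therefore properties of the choice and not results. Width enters the choice as well, since a wider site meets both overlap demands more easily.

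H295R is a human adrenocortical carcinoma line, and the H295R/TR SF-1 cells used here are a subclone in which doxycycline switches on extra SF-1, a nuclear receptor that controls steroid production. Chromatin was immunoprecipitated with an antibody against NRSF/REST and sequenced in 1 library from cells at basal SF-1 dosage and 1 library from cells given doxycycline for 3 days before fixation, called increased SF-1 dosage; the labels and the methods differ on its concentration. All cells belong to this one engineered line, and the 2 input DNA libraries in the labels were not analysed here. Each list gives called intervals on hg19 whose score is 1000 throughout, so width was used to rank sites, and boundaries fall on steps of 50 bp. Read depth is unknown. With 1 library per dosage no value has a replicate check and no test was made; the 95% Wilson intervals cover counting error over sites only.

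NRSF/REST is a zinc finger repressor that keeps many neuronal genes silent outside the nervous system. It binds the RE1 element, a long DNA word made of a left and a right part held at a fixed distance, and recruits histone deacetylases and other corepressors. RE1 elements are found in promoters and introns and also in exons, where the same bases may also encode protein.

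The element was searched on both strands as the consensus CTGTCCNNGGTGCTG, which has 13 fixed bases and 2 free ones, with at most 2 mismatches allowed. Positions are numbered along the consensus strand, with its first base as 1, and substitutions give the consensus base first. The first set shows 6 of the 8 matches without mismatch that lay whole inside coding sequence under a shared coding-exon site. In these cases RE1 and protein code coincide base for base. Capitals mark fixed bases that match the consensus, each run is written 5′ to 3′ in the direction of the consensus, and coordinates and strand are those of hg19.
DNAJC6, chr1:65775600-65775620, minus strand: tgagCTGTCCatGGTGCTGgc
FAT3, chr11:92535015-92535035, minus strand: gtctCTGTCCcaGGTGCTGag
HYDIN, chr16:70896094-70896114, plus strand: ggtgCTGTCCagGGTGCTGcc
ZZEF1, chr17:3953020-3953040, minus strand: aaagCTGTCCagGGTGCTGag
EP300, chr22:41543907-41543927, minus strand: ccaaCTGTCCatGGTGCTGaa
ANKRD33B, chr5:10650073-10650093, minus strand: gccgCTGTCCttGGTGCTGcc

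The second set comes from the widest shared coding-exon sites and shows what the broadest called intervals held; only the last of the 6 lay in coding sequence. AP3B2 and GPR78 had the match in a noncoding exon, CELF4, L1CAM and SLC8A2 in an intron, and LRTM2 in CDS. SLC8A2 and LRTM2 carry the single substitution G12C.
AP3B2, chr15:83332070-83332090, minus strand: cccgCTGTCCatGGTGCTGaa
GPR78, chr4:8582441-8582461, minus strand: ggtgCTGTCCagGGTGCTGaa
CELF4, chr18:34850202-34850222, plus strand: tgacCTGTCCatGGTGCTGat
L1CAM, chrX:153140957-153140977, plus strand: ttcgCTGTCCctGGTGCTGaa
SLC8A2, chr19:47940971-47940991, plus strand: tgtgCTGTCCgtGGTcCTGac
LRTM2, chr12:1940415-1940435, minus strand: gtccCTGTCCagGGTcCTGat

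The third set shows imperfect matches inside coding sequence and a match that crosses a splice junction; OPRM1, GBF1 and the CYP4F genes were picked after their values were seen. OPRM1, the mu opioid receptor gene, differed by G12A, and NEUROD1, a neuronal transcription factor gene, by G12A and T14C. The neighbouring cytochrome P450 genes CYP4F12 and CYP4F8 carried the same coding bases up to 1 change: CYP4F12 differed from the consensus by G3C and G12C, and CYP4F8 by G3C, G12C and C13T, which puts CYP4F8 outside the limit of 2 mismatches. As close copies these genes can share reads, so their sites are uncertain as separate events. In the GBF1 junction capitals mark coding bases instead, and 9 of the 15 bases of the match were coding, with the rest in the intron.
OPRM1, chr6:154360671-154360691, minus strand: gctgCTGTCCatGGTaCTGac
NEUROD1, chr2:182542877-182542897, plus strand: ggagCTGTCCatGGTaCcGta
CYP4F12, chr19:15795897-15795917, plus strand: tggcCTcTCCtgGGTcCTGta
CYP4F8, chr19:15734794-15734814, plus strand: tggcCTcTCCtgGGTctTGta
GBF1 junction, chr10:104121646-104121690, plus strand: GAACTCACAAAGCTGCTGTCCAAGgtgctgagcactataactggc

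The fourth set shows members that lacked the consensus but held both of its parts, without mismatch, 8 bases apart in place of 2. Capitals again mark fixed bases that match. SPIRE2 and OR2Z1 had these bases whole in coding sequence, PDE4C in a noncoding exon, and SH2D3C, CYP4F8 and BRSK2 in an intron.
SH2D3C, chr9:130513901-130513921, minus strand: CTGTCCagcgctgtGGTGCTG
PDE4C, chr19:18344120-18344140, plus strand: CTGTCCgcgccggaGGTGCTG
CYP4F8, chr19:15734714-15734734, plus strand: CTGTCCaccctctgGGTGCTG
SPIRE2, chr16:89895022-89895042, plus strand: CTGTCCctggaggaGGTGCTG
OR2Z1, chr19:8841985-8842005, plus strand: CTGTCCacctcaggGGTGCTG
BRSK2, chr11:1472380-1472400, minus strand: CTGTCCccgcctctGGTGCTG

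Of 178 shared coding-exon sites, 126 held the consensus with at most 2 mismatches (70.8%, 95% interval 63.7 to 77.0), and 42 held it without mismatch (23.6%, 18.0 to 30.3). With at most 2 mismatches the background for all 3431 shared basal sites was 58.9%. Windows as wide as the coding-exon sites and placed 10 kb up- and downstream of them held it in 4 of 356 cases (1.12%). From the increased list the share was 129 of 178 (72.5%), with 44 free of mismatches. Shared noncoding sites inside genes gave 64.0% (61.2 to 66.7) and shared sites within 2 kb of a gene 5′ end gave 53.0% (48.6 to 57.5). The interval of the coding-exon sites thus overlapped that of the noncoding genic sites and lay above that of the promoter sites. Without mismatch the share was 17.1% (15.9 to 18.4) over all shared basal sites. It was 19.2% (17.1 to 21.6) for noncoding genic and 19.7% (16.4 to 23.5) for promoter sites. Each of these intervals overlapped that of the coding-exon sites.

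Width moved with these shares. Coding-exon sites had a median width of 599 bp (quartiles 399 and 849 bp) at basal dosage, against 449 bp for noncoding genic sites and 599 bp for promoter sites. A wider site reaches a coding segment more easily, so the difference from noncoding genic sites is no result. Among members up to 299 bp wide 13 of 29 held the consensus (44.8%, 28.4 to 62.5), among those of 349 to 599 bp 50 of 68 (73.5%, 62.0 to 82.6), and among those of 649 bp and over 63 of 81 (77.8%, 67.6 to 85.5). Noncoding genic sites of the same widths gave 43.3%, 61.8% and 88.2%. In the widest class the coding-exon share was lower than the noncoding genic share (84.0 to 91.4), while in the middle class it was higher, and all 3 pairs of intervals overlapped. Higher GC content was also seen in members, with a median of 54.8% against 45.2% for noncoding genic sites and 61.1% for promoter sites, and its part in the shares was not tested.

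**Figure D1:**
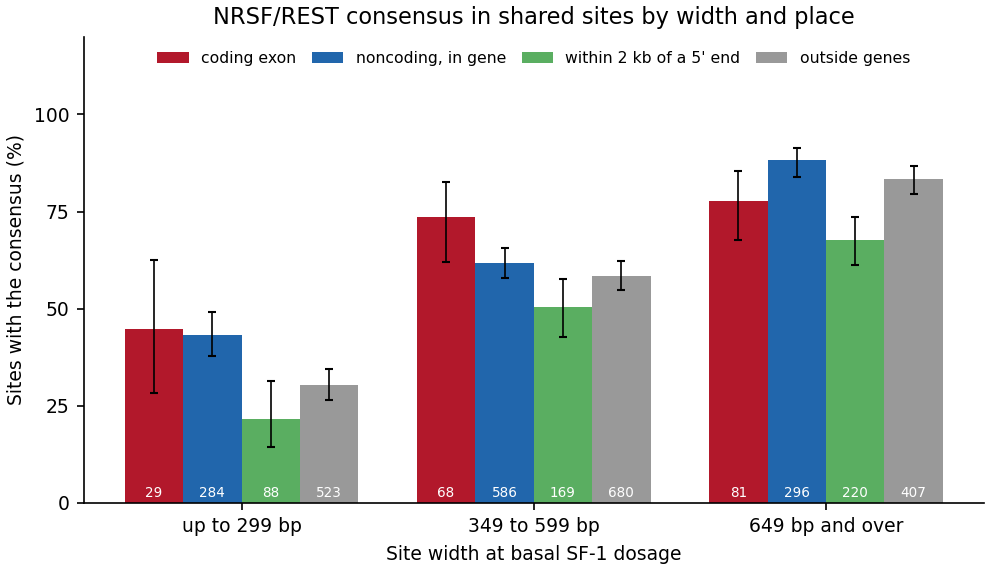
Share of shared sites holding the NRSF/REST consensus with at most 2 mismatches (y axis, percent) in 3 classes of basal site width (x axis), for coding-exon, noncoding genic, promoter (within 2 kb of a 5′ end) and outside-gene sites. Bars are shares, lines are 95% Wilson intervals, and white numbers give the sites per bar. Coding-exon sites held it in 44.8% of the narrowest and 77.8% of the widest class.

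Coding-exon sites that were called at 1 dosage only held the element in smaller shares. Of 56 coding-exon sites seen only at basal dosage, 4 did (7.14%, 2.81 to 17.0), and of 53 seen only at increased dosage, 12 did (22.6%, 13.5 to 35.5). Their median width was 149 bp in both lists, against 599 and 549 bp for the shared ones. Among the shared ones up to 299 bp wide the share was 44.8% (28.4 to 62.5), above the interval of the basal-only sites and overlapping that of the increased-only sites. Among all basal sites of any place 40.7% held the element, against 58.9% of all shared ones. At increased dosage these shares were 42.1% and 58.8%. Sites of 1 dosage thus held it less often in the lists as a whole too, but their own background share was not tallied.

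In total 234 basal sites met the position rule, and 178 of these were shared (76.1%, 70.2 to 81.1), beside a background of 64.5% for all 5323 basal sites. At increased dosage 178 of 231 were shared (77.1%, 71.2 to 82.0), beside 67.9% for all 5059 sites. At equal width the shares lay closer together: 29 of 82 coding-exon sites up to 299 bp were shared (35.4%) against 33.4% of all sites, 68 of 71 of 349 to 599 bp (95.8%) against 96.9%, and 81 of 81 of 649 bp and over against 99.9%. In each width class the intervals of coding-exon sites and of all sites overlapped.

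With each site given to 1 gene, the 178 sites fell on 168 genes, and 4 sites also touched the CDS of another annotated gene. Of these, 160 had 1 site, 6 (ALB, CARMIL2, MUC16, NLRP5, SKOR1 and TRAF1) had 2, and OLFM1 and SLC12A5 had 3. Most sites touched coding sequence only in part. The median overlap was 144 bp of CDS (range 2 to 1091 bp), 29.2% of all member bases were coding, 12 sites lay wholly in CDS and 73 had their midpoint there. The coding segment was an inner one in 118 sites, the first of several in 34, the last in 21 and the only one in 5. Median distance from the gene 5′ end was 18946 bp (2007 to 628147 bp), but 85 members lay within 2 kb of the 5′ end of some annotated transcript, 57 of these within 500 bp. An internal start of such a transcript cannot be told apart from an exon of the longer ones by position alone.

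At the 2 kb limit, just inside lay a site of OLFM1 at 2007 bp from the 5′ end (1349 bp wide at basal and 1249 bp at increased dosage), TNS2 at 2097 bp, CEACAM18 at 2157 bp and EGR4 at 2254 bp. Just outside lay NLRP6 at 1943 bp, POU4F3 at 1898 bp (799 and 1099 bp), MARCHF11 at 1721 bp and PCSK2 at 1648 bp. Of the 4 outside, MARCHF11 and POU4F3 held a consensus match without mismatch, and of the 4 inside none did.

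Although every member touched CDS, the best consensus match usually lay beside the coding bases. Of the 126 matches, 44 lay whole in CDS (34.9%, 27.2 to 43.6), 9 crossed a coding edge, 23 lay in noncoding exon sequence and 50 in an intron. These sites were 28.3% coding by bases, so the share in CDS was near, and its interval reached down to, the coding share of the bases searched. The split moved with match quality. Of 42 matches without mismatch 8 were whole in CDS (19.0%, 9.98 to 33.3), of 56 with 1 mismatch 22 were (39.3%, 27.6 to 52.4), and of 28 with 2 mismatches 14 were (50%, 32.6 to 67.4), while the coding share of the bases in these sites went from 23.5% to 28.6% and 36.9%. Intervals of every pair of classes overlapped, those with 0 and 2 mismatches only narrowly. Among the 73 members with their midpoint in CDS, 46 held the consensus, and 35 of these best matches were whole in CDS (76.1%, 62.1 to 86.1). Matches lay near the midpoint, so this share follows largely from the position of the midpoint.

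**Figure D2:**
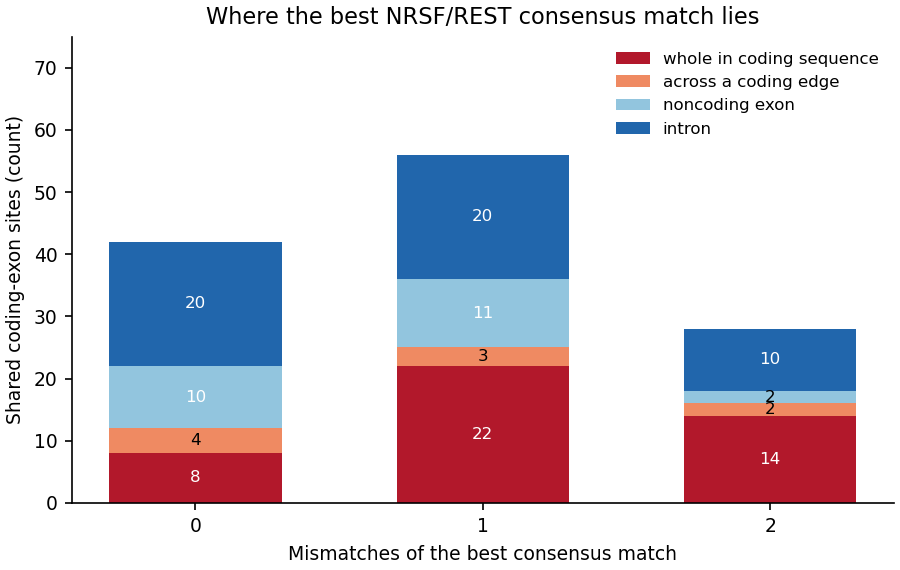
Number of shared coding-exon sites (y axis) by mismatches of the best consensus match (x axis), stacked by where the match lies: whole in coding sequence, across a coding edge, in a noncoding exon or in an intron. Matches whole in coding sequence number 8 of 42, 22 of 56 and 14 of 28.

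Site width followed the same split, but the rule favours this. A site around a noncoding match had to be wide enough to reach CDS, while one with its match in CDS could have any width. These width differences are therefore no result about the members. The 44 members with a match in CDS had a median width of 474 bp, against 799 bp for the 73 with a noncoding match, 549 bp for the 9 with a match across an edge and 474 bp for the 52 without a match. Among matched members up to 299 bp wide 9 of 13 had the match whole in CDS (69.2%), where 59.7% of bases were coding. Among those of 649 bp and over the count was 12 of 63 (19.0%, 11.2 to 30.4), where 25.5% of bases were coding. Matches lay close to the site midpoint in both cases, at a median of 39.5 bp for those in CDS and 50 bp for noncoding ones.

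The 73 noncoding matches lay at a median of 135 bp from the coding segment (13 to 802 bp). Within 100 bp lay 23 of them, and 11 were over 300 bp away. Relative to the direction of the gene 30 were upstream of the segment and 43 downstream. NPPA, the gene of atrial natriuretic peptide, named after its values were seen, had 3 bp of CDS in its site and a match without mismatch in noncoding exon sequence 281 bp downstream. GRIN1, which encodes the obligate subunit of NMDA receptors, had the most distant one, 802 bp downstream in an intron with T4G.

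**Figure D3:**
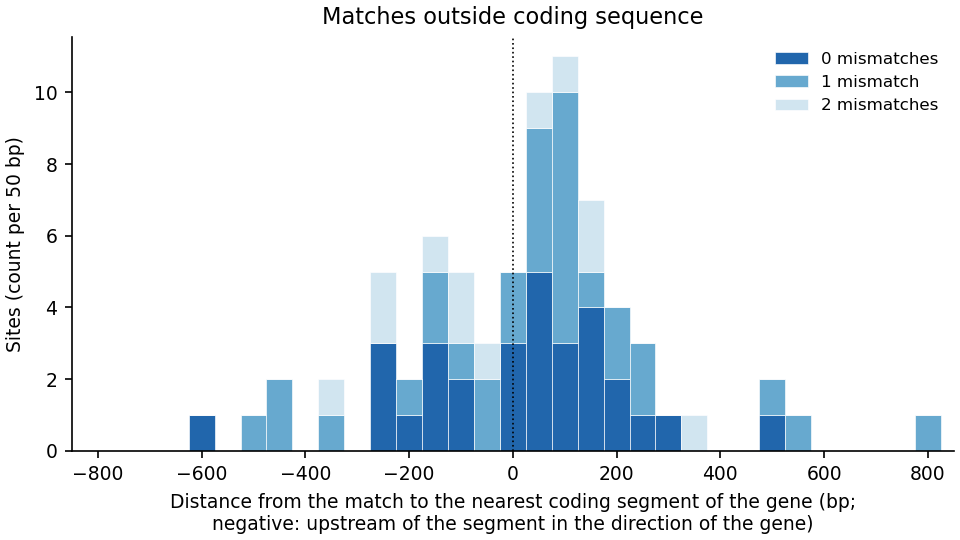
Number of sites (y axis, per 50 bp) by the distance in bp from a noncoding match to the nearest coding segment (x axis, negative values upstream in the direction of the gene), shaded by mismatches. The 73 matches lie between 13 and 802 bp from the segment, 30 upstream and 43 downstream.

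Seen from the genome, 816 perfect matches were found in hg19 and 601 of them (73.7%, 70.5 to 76.6) lay under a site at both dosages. Each match was counted in 1 place, and those within 2 kb of a 5′ end were kept apart from the other places. Coding sequence beyond that distance held 14, and 8 of these were occupied (57.1%, 32.6 to 78.6). All 4 across a coding edge were occupied (51.0 to 100), as were 26 of 35 in noncoding exons (74.3%, 57.9 to 85.8), 234 of 339 in introns (69.0%, 63.9 to 73.7), 233 of 321 outside genes (72.6%) and 96 of 103 within 2 kb of a 5′ end (93.2%, 86.6 to 96.7). The wide interval for CDS overlapped those of introns, noncoding exons and sequence outside genes and stopped below that of the 5′ ends. With 1 mismatch, 22 of 304 CDS matches were occupied (7.24%, 4.83 to 10.7), against 10.1% in introns (9.14 to 11.2) and 22.1% near 5′ ends (18.5 to 26.2). With 2 mismatches it was 23 of 3126 (0.736%, 0.491 to 1.10) against 0.664% in introns. At each single mismatch count the CDS and intron intervals overlapped. Pooled over at most 1 mismatch they did not, with 9.43% of 318 CDS matches (6.69 to 13.1) against 15.4% of 3751 intron matches (14.3 to 16.6), where 14 of the 318 and 339 of the 3751 were free of mismatches.

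**Figure D4:**
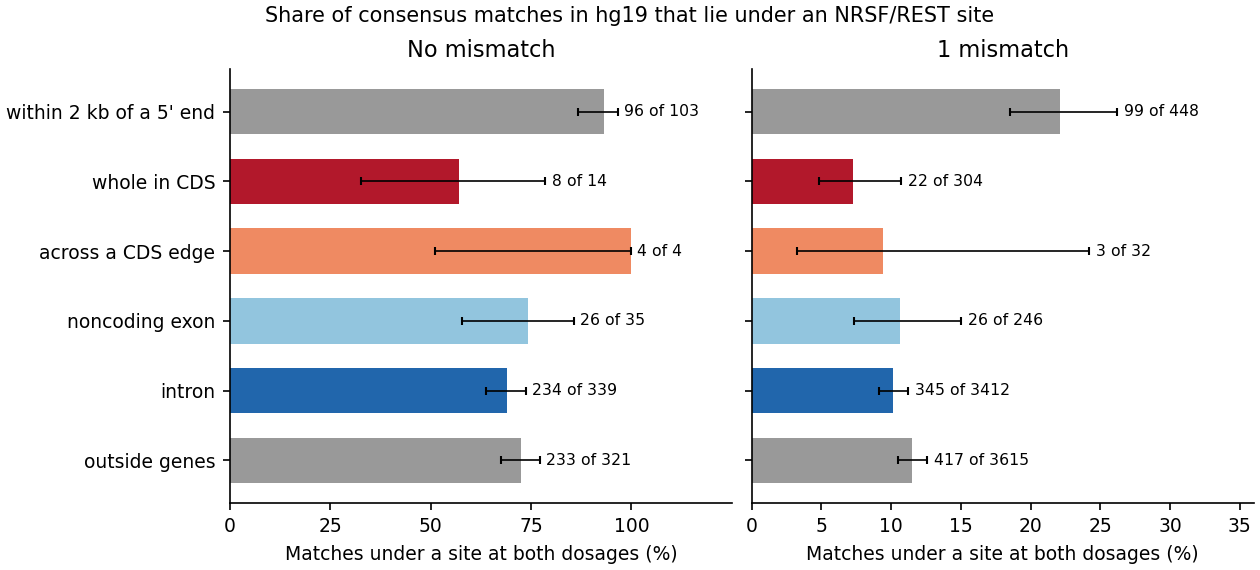
Share of consensus matches in hg19 that lie under an NRSF/REST site at both dosages (x axis, percent) by gene part (y axis), for matches without mismatch (left) and with 1 mismatch (right). Bars are shares, lines 95% Wilson intervals, and the text gives occupied of all matches. Matches within 2 kb of a 5′ end are counted only there, and the remaining coding sequence has 8 of 14 and 22 of 304.

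The 8 occupied perfect CDS matches belonged to genes of varied function. DNAJC6, which encodes the neuronal clathrin-uncoating factor auxilin, had a site 949 bp wide at both dosages. ANKRD33B had 1149 bp at basal and 749 bp at increased dosage, HYDIN, a gene of motile cilia, 749 and 999 bp, and EXTL3, a heparan sulfate glycosyltransferase gene, 699 and 499 bp. The other 4 were narrower. FAT3, an atypical cadherin gene, had 399 and 499 bp, XPO7, a nuclear export receptor gene, 349 and 399 bp, ZZEF1 299 and 249 bp, and EP300, the gene of a histone acetyltransferase, 249 and 299 bp. The bases around the ANKRD33B match occurred 4 times among all matches with at most 3 mismatches, and HYDIN has a near-identical copy elsewhere in the genome, so reads at these genes are uncertain. Without repeated contexts, 7 of 13 perfect CDS matches were occupied (53.8%). The 6 that had no site at either dosage were in MUC6, SNTB2, ZNF469, GZMM, PDCD2L and PTK7.

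Matches in CDS ran on the coding strand in 20 members and on the opposite strand in 24. Reading frames were uneven. On the coding strand 15 of 20 matches began at codon position 1, 4 at position 2 and 1 at position 3, and on the opposite strand 18 of 24 had their first base along the coding strand at position 3, with 3 each at positions 1 and 2. The 3444 CDS matches of the genome beyond 2 kb of a 5′ end, with at most 2 mismatches, showed a like split. They numbered 1266, 401 and 110 on the coding strand and 441, 252 and 974 on the opposite one. Occupied at both dosages were 1.18% of coding-strand and 1.92% of opposite-strand matches. Noncoding matches of members ran with the gene in 33 and against it in 40.

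Mismatches fell on a few positions. In the 84 matches with 1 or 2 mismatches, position 12 differed in 37, position 3 in 22 and position 4 in 19, while position 10 differed in none. Single substitutions were most often G12C and T4G, in 10 members each, then G3C and T4A, in 7 each. The 2 free bases were AT in 37 of 126 members, GT in 16 and AG in 15. LRTM2, printed above with G12C, and EP300, printed with AT between the parts, are examples from coding sequence, but 73 of the 126 matches were noncoding. Other shared sites were not tallied in this way, so these patterns cannot be called particular to coding-exon sites.

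The consensus was missing from 52 members. Of these 32 held both parts, each with at most 1 mismatch, at another distance of 0 to 20 bases (61.5%, 48.0 to 73.5), against 21 of 104 windows 10 kb away (20.2%, 13.6 to 28.9). The distance of 8 bases was the most frequent, in 12 members (23.1%, 13.7 to 36.1) against 6 of 104 windows (5.77%). Without mismatch in either part it occurred in the 6 members printed above (11.5%, 5.40 to 23.0) and in 0 of 104 windows, for which the interval reached 3.56%. In 7 of the 12 members (58.3%, 32.0 to 80.7) the arrangement lay whole in CDS, and the coding share of their bases was not set beside this count. Among the 7 were SPIRE2, which encodes an actin nucleator, OR2Z1, an olfactory receptor gene, and GRIN3A, an NMDA receptor subunit gene. The 8-base distance was singled out after these counts were seen. Other shared sites without the consensus were not set beside them, so the distance cannot be called particular to coding-exon sites.

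The 10 widest members lay between 1249 and 1549 bp at basal dosage. At 1249 bp 6 members tied, and L1CAM, GPR78 and LRTM2 came first in the order of the table; the others, SOGA3, ANGPT4 and CARMIL2, had 1099, 949 and 1099 bp at increased dosage. SH2D3C, a signalling adaptor gene, had a site of 1549 bp at basal and 1499 bp at increased dosage with the parts 8 bases apart, and AP3B2, which encodes the neuronal AP-3 adaptor subunit, had 1549 bp at both. CELF4, a neuronal RNA-binding protein gene, had 1499 and 1299 bp, and PDE4C, a cyclic AMP phosphodiesterase gene, 1449 and 1549 bp. BCAN, the gene of the brain proteoglycan brevican, had 1399 and 1249 bp, with 797 bp of CDS in the site. OLFM1, a gene of a secreted brain glycoprotein, had 1349 and 1249 bp, and SLC8A2, a sodium-calcium exchanger gene, 1349 bp at both. L1CAM, a neural adhesion molecule gene, had 1249 and 1149 bp, GPR78, an orphan receptor gene, 1249 and 1049 bp, and LRTM2, a leucine-rich repeat protein gene, 1249 and 999 bp. AP3B2 and SLC8A2 kept their width, PDE4C was wider at increased dosage, and the other 7 of these 10 were narrower by 50 to 250 bp, with ANGPT4 among the ties narrower by 300 bp. Since basal width was the ground of the choice, narrower sites at the other dosage are no result about these members.

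Wider and narrower sites were nearly balanced between the dosages. At increased dosage 68 members were wider, 37 equal and 73 narrower, with a median difference of 0 bp (−600 to 800 bp). Within 50 bp, the step of the boundaries, stayed 99 members (55.6%), against 63.1% of all shared sites and 56.0% of shared promoter sites. Largest gains were at TRAF1, a TNF receptor adaptor gene, where basal sites of 299 and 699 bp both overlapped 1 site of 1099 bp, and at TBC1D30, which went from 949 to 1699 bp. NKAIN1 went from 949 to 1349 bp and an OLFM1 site from 999 to 1399 bp. At TRAF1 the gain was thus that of 2 intervals joined into 1.

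**Figure D5:**
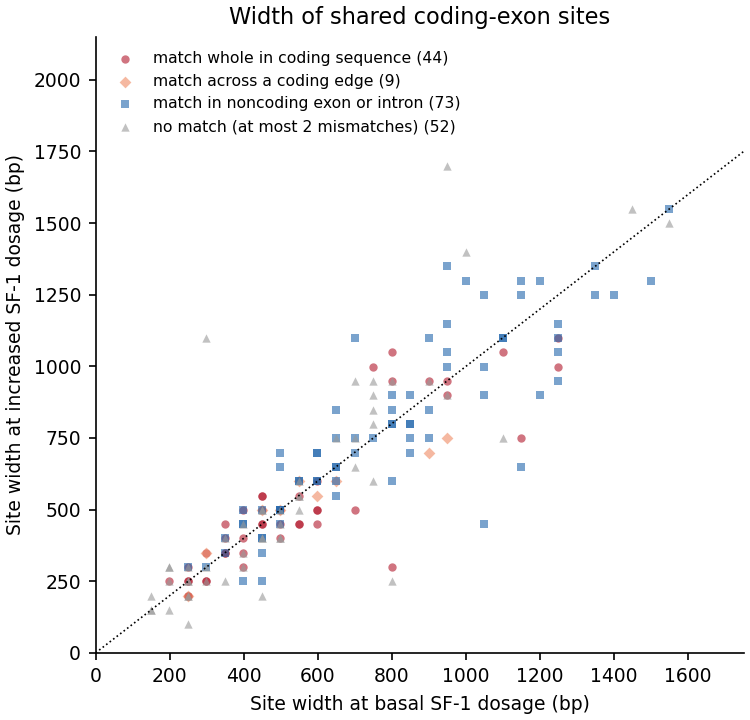
Width in bp of each of the 178 shared coding-exon sites at basal (x axis) and increased (y axis) SF-1 dosage, marked by where the best consensus match lies; the dotted line marks equal width. Of these, 68 points lie above the line, 37 on it and 73 below it, and where a site had 2 partners the wider one is plotted.

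Losses likewise included split sites. At GRIN1 a basal site of 1049 bp faced sites of 299 and 449 bp, and at AGAP2 a site of 799 bp faced 2 sites of 299 bp. SKOR1, a transcriptional corepressor gene, went from 799 to 249 bp without a split, LHFPL5, a gene of the hair cell transduction complex, from 1149 to 649 bp, and ANKRD33B from 1149 to 749 bp. In all 5 members had 2 partners at increased dosage, the other 3 being GRM4 (1199 bp against 299 and 899 bp), OGFOD3 (1049 bp against 899 and 149 bp) and CDH23 (899 bp against 749 and 199 bp). With 1 library per dosage none of these differences can be set against replicate spread.

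SLC12A5, which encodes the neuronal potassium-chloride cotransporter, had 3 members that each held a perfect match outside CDS. A site at its first coding segment was 949 bp at basal and 1149 bp at increased dosage, one at segment 8 of 26 was 899 and 1099 bp, and one at segment 25 was 699 bp at both. OLFM1 also had 3 members, with a match of T4A and G12C in the first and none within 2 mismatches in the others. MUC16, a cell surface mucin gene, had both of its sites wholly within very long coding segments, one of 949 bp at basal and 899 bp at increased dosage with T4A and one of 449 bp at both with G12A and G15C. In ALB, the serum albumin gene, a site of 599 and 499 bp held G3A and G12C in CDS, and a site of 249 and 199 bp held no match.

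By 10 lists of gene families, 27 of the 168 genes (16.1%) belonged to at least 1 of them, against 19.1% of 904 genes with a shared noncoding site and 8.61% of all 20149 protein-coding genes. The count was 11 over the 93 sites left when those within 2 kb of any transcript 5′ end were dropped. It was 14 over the 73 sites with their midpoint in CDS, so the number of sites fell too. These shares are descriptions, and the lists include families that a neuronal repressor is known for. Members with the match in CDS were in a listed family in 3 of 44 cases (6.82%, 2.35 to 18.2) and those with a noncoding match in 12 of 73 (16.4%, 9.66 to 26.6), with overlapping intervals.

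Ion channel genes numbered 5, namely KCNT1, RYR1, RYR3, KCNIP1 and ASIC1. They made up 2.98% of the 168 genes, against 4.65% of genes with a shared noncoding site and 0.978% of all protein-coding genes. KCNT1, a sodium-activated potassium channel gene, had a site of 1049 bp at basal and 1249 bp at increased dosage with a perfect intronic match 63 bp downstream of the segment. RYR1, the calcium release channel gene of skeletal muscle, had 799 and 1049 bp and its match, G3C and G12C, was in CDS. RYR3 had 749 and 949 bp with no match within 2 mismatches. KCNIP1, the gene of a potassium channel-interacting protein, had 599 and 699 bp, and ASIC1, an acid-sensing channel gene, 499 and 399 bp. Of the 5, 4 were thus wider at increased dosage and ASIC1 was narrower. Among all 178 members 68 were wider and 73 narrower, and among all 3431 shared sites 1214 were wider and 1298 narrower. Without replicate libraries, so few sites cannot show a direction for ion channel genes.

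Transmitter receptor and transporter genes also numbered 5, with GRM4, SLC6A3 and GRIN1 the widest and GRIN3A and SLC6A6 the others. These were 2.98% of the 168 genes, against 2.54% of genes with a shared noncoding site and 0.690% of all protein-coding genes. Of the 5, 4 held the consensus and none had it in CDS. SLC6A3, the dopamine transporter gene, had 1099 bp at both dosages and a match with T2C and T14A in an intron. Genes of vesicle release were SYT14, RPH3A, DNM1 and PPFIA3, of which SYT14, a synaptotagmin gene, had 949 and 999 bp, RPH3A, a Rab3 effector gene, 849 and 699 bp, and DNM1, the gene of neuronal dynamin, 499 and 399 bp without a match. Vesicle genes made up 2.38% of the 168 genes, against 2.10% and 0.501% in the same backgrounds. Adhesion and guidance genes were L1CAM, CDH23, EPHB1 and PTPRH, which made up 2.38%, against 4.65% and 1.17%. EPHB1, an ephrin receptor gene, had 849 and 749 bp and T4G in an intron.

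Matrix genes were BCAN, RELN, ADAMTS18 and COL4A3. They made up 2.38% of the 168 genes, against 1.33% of genes with a shared noncoding site and 0.581% of all protein-coding genes. RELN, the reelin gene, had 549 and 449 bp with G3A in CDS, and ADAMTS18, a secreted protease gene, 349 and 249 bp without a match. Neural transcription factor genes were NEUROD1, with 899 and 949 bp over its single coding segment, and IRX4, with 199 and 299 bp and no match within 2 mismatches. STMN3, a microtubule-destabilising protein gene, was the one cytoskeletal member, with 599 and 549 bp and a match with T4G across the edge of its first coding segment. None of the 168 genes was on the neuropeptide, granin and neurotrophin list or on the zinc finger list, which takes symbols such as ZNF and ZBTB only and leaves out other zinc finger genes such as EGR4. Genes on the zinc finger list made up 0.996% of the 904 genes with a shared noncoding site and 3.08% of all protein-coding genes. For the neuropeptide, granin and neurotrophin list these backgrounds were 0.774% and 0.288%, so absence from the 168 genes says little. Neural transcription factor genes made up 1.19% of the 168, against 1.11% and 0.675%. The cytoskeletal share was 0.595%, against 0.996% and 0.511%.

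The steroid list contributed CYP11B1 and CYP11B2, adjacent genes on chromosome 8 whose enzymes complete cortisol and aldosterone synthesis in the adrenal cortex. They were 1.19% of the 168 genes, against 0.111% of genes with a shared noncoding site and 0.144% of all protein-coding genes. Each gene had a consensus match without mismatch across an edge of its last coding segment, segment 9 of 9, of which 111 bp lay in the site. The CYP11B2 site was 649 bp at basal and 599 bp at increased dosage, and the CYP11B1 site 449 and 499 bp. Both differences equal 1 boundary step and go in opposite directions. These genes are close copies of each other, so reads may be shared between them and the sites are uncertain as separate events. In WDR62 a perfect match crossed the end of segment 10 of 10 of an annotated transcript, a segment of 9 bp, in a site of 299 and 349 bp. That end belongs to the transcript used and need not be the end of other transcripts of the gene.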

How the data were processed

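NRSF/REST ChIP-seq sites of H295R/TR SF-1 cells came from 1 library at basal and 1 at increased SF-1 dosage. Per the paper's methods the authors aligned the reads to hg19 by ELAND, and the submitters' processing notes name CASAVA 1.6; caller settings for NRSF/REST sites are not given in the sources used here. The deposited lists hold intervals, an order number and a score of 1000 for every site, so neither read counts nor depth are known.

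Starts were converted to a count from 1. Coding segments, exons and 5′ ends came from GENCODE release 44 mapped to hg19. The consensus was scanned in both strands of the genome, and the best match of a site was the one with fewest mismatches. Control windows lay 10 kb to either side. Work was done with Python 3.11.15, numpy 2.4.6, scipy 1.17.1, pysam 0.24.0 and matplotlib 3.10.9. Coding segments leave out the stop codon. On simulated data 200 of 200 planted matches, 300 of 300 overlaps and 8 of 8 site classes were recovered.

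Members, gene family lists and tallies were chosen with earlier results of these data known. Named genes are the 10 widest members, those with a perfect match in CDS, the 3 widest of each gene family, the 5 largest width differences in either direction and the sites nearest the 2 kb limit; all other genes, such as SLC12A5, MUC16, ALB, GBF1 and WDR62, were chosen after their values were seen. Alternatives covered overlap, width, list order, distance, annotation and mismatches. Those for orientation, gene families and single-copy matches, and the search for parts at other distances, were added once the data had been looked at. Protein residues at the matches were not analysed here, and 2 items are not reported here.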

Additional observations from a re-analysis of the deposited data

How the results depend on the processing

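Requiring 2 kb from the 5′ ends of all transcripts left 93 sites and 11 gene family genes. Requiring the site midpoint in CDS left 73 sites and 14 such genes, with the consensus in 63.0% and 76.1% of best matches whole in CDS. In the widest 50% of each list the consensus share was 77.6% and the shared part of coding-exon sites 91.7%, and in the first 50% by list order the consensus share was 77.8%. By mismatches allowed, the consensus share was 23.6% with none, 55.1% with at most 1 and 87.1% with at most 3, and without mismatch 19.0% of best matches lay whole in CDS. Beyond 2 kb of a 5′ end, the genome-wide share of CDS matches under a site at both dosages was 9.43% with at most 1 mismatch and 1.54% with at most 2. Median width lay between 499 and 649 bp under the 12 alternatives, and 37.5% to 51.7% of CDS matches ran on the coding strand with other mismatch limits, against 45.5%. No paired analysis was possible because there is 1 library per dosage, and for the same reason no library could be left out. Depth is unknown, so absence of a called site does not show absence of binding.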
